A study of Mus musculus with 8 samples.

Results

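Homeobox genes encode transcription factors that bind DNA through a homeodomain. The genes described here are the homeobox families that lie outside the Hox clusters, taken as every probe set with a single gene symbol of the form Pax, Lhx, Nkx, Dlx, Meis, Pbx, Irx, Otx, Cdx, Msx, Pitx, Gbx, Emx, En, Isl, Prrx, Tlx, Alx or Rhox followed by a number, and those named in the manner of Six2 and Six3. The rule used names alone and no measured value. It found 102 of the 22626 probe sets tested, which stand for 73 of 12393 named genes. Of these genes 53 had 1 probe set and 20 had several.

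The arrays hold RNA of mouse embryonic stem cells kept with leukemia inhibitory factor and 15% fetal calf serum, and no treatment was given. The groups were wild-type cells of the CJ7 line, Ezh2-/- cells, Eed-/- cells and Jarid2-/- cells, with 2 arrays each and 8 in all. Neither the clones nor the cultures behind the 2 arrays of a group are named in the labels, so genotype and cell line cannot be told apart, and p-values measure the spread between these arrays, which may be technical. Each value is the intensity of a probe set as the authors deposited it, on a linear scale. How bright a probe set is depends also on how well its probes bind, so levels of different genes are not compared, and the brightest probe set serves only to give each gene a single value. In RNA of a whole culture, fewer cells making a transcript and less transcript per cell cannot be told apart.

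Polycomb repressive complex 2 (PRC2) places a methyl mark on histone tails at silent genes. Ezh2 is its main methyltransferase, Eed is the subunit that binds the mark and keeps the complex active, and Jarid2 is an accessory subunit that helps bring it to its targets. Homeobox genes are among the best known targets in embryonic stem cells, where most of them are silent and marked, and their promoters are typically rich in CpG dinucleotides. In the embryo the same genes set the identity of brain regions, heart, limb, eye, kidney and gut.

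Promoter sequences were available for 54 of the 73 genes from RefSeq on the GRCm38.p6 build, as windows of 300 bases from 250 before to 50 after the most upstream annotated start of a gene. The motif searched was CG, which reads the same on both strands. The homeobox windows held 4 to 40 CpG dinucleotides with a median of 18.5, and the 27025 genes of the table had a median of 7. At least 10 were present in 85.2% of the homeobox windows and in 44% of all. The 250 bases before the start are printed for 5 genes, from 5′ to 3′ on the strand of the gene, with each CpG in capitals. Meis1 (chr11:19018970-19019219, minus strand) and Meis2 (chr2:116064620-116064869, minus strand) are shown because both rose in the same pair of mutants. Six2 (chr17:85688255-85688504, minus strand) and Six3 (chr17:85620584-85620833, plus strand) are shown as members of a family on the same chromosome that moved in opposite directions, and Rhox5 (chrX:37754358-37754607, plus strand) as a CpG-poor promoter of a gene whose direction differed between mutants.
Meis1: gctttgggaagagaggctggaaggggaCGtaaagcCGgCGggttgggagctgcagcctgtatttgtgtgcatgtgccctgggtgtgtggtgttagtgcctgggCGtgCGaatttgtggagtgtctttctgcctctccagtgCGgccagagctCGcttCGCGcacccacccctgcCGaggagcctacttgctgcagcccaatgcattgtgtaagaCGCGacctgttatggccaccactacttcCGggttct
Meis2: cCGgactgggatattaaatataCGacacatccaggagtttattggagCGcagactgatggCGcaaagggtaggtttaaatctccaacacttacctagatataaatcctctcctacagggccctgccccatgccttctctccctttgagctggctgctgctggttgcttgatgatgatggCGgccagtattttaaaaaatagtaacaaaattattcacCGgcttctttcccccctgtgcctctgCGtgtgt
Six2: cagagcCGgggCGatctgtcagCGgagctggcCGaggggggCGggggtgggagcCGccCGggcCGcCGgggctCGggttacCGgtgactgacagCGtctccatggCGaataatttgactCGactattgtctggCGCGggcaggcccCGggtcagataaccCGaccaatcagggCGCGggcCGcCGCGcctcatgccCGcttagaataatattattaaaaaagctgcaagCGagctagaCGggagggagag
Six3: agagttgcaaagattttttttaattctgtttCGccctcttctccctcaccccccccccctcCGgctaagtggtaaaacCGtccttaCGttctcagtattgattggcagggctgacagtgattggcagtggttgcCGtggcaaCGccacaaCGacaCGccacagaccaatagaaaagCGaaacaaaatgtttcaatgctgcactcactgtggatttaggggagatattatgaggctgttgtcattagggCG
Rhox5: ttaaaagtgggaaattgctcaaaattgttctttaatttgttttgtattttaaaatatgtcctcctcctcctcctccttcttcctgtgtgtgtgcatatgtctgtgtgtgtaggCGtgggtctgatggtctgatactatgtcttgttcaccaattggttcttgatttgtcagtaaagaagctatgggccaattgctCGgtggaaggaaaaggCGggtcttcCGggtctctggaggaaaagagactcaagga

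In these stretches Six2 held 26 CpG dinucleotides, Meis1 13, Six3 10, Meis2 7 and Rhox5 4. Over the full window the 10 genes that rose in Eed-/- cells had a median of 23.5, and the 42 that were not called there had a median of 18. The 5 genes that rose in Ezh2-/- cells had a median of 25 against 18 for the 44 not called. Genes that fell had medians of 26 for the 2 in Eed-/- cells and 21 for the 5 in Ezh2-/- cells. Those 2 were Nkx2-4 (38), whose probe sets gave opposite calls, and Six3 (14), whose call here ended in 11 of 16 alternatives. On the Jarid2-/- arrays the median was 27 for the 4 that rose and 25.5 for the 4 that fell. It was 18 for the 46 not called there. These counts describe the windows and carry no test.

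**Figure D1:**
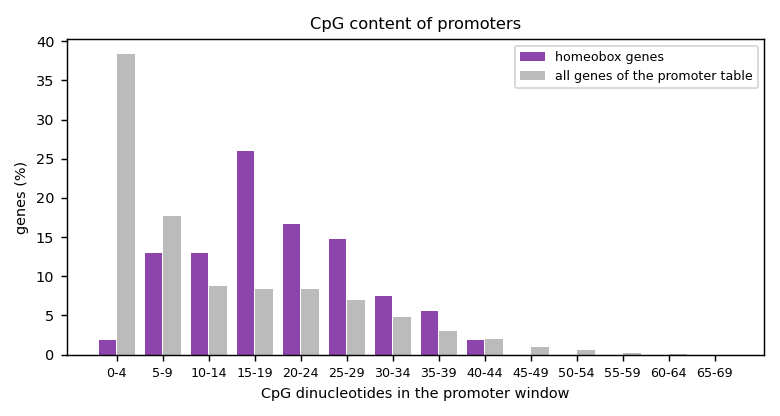
Share of genes (%, vertical axis) by the number of CpG dinucleotides in the 300-base promoter window (horizontal axis), for 54 homeobox genes (purple) and the 27025 genes of the promoter table (grey). The largest grey share, 38.31%, lies at 0 to 4 CpG dinucleotides, and the largest purple share, 25.93%, at 15 to 19.

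The arrays were alike in brightness, with medians of 322.9 to 351.5. The median of the hybridization controls was 2370 to 2497 on the wild-type and Ezh2-/- arrays and 1870 to 2047 on the Eed-/- and Jarid2-/- arrays, and its part in the results was not tested. Ezh2 (probe set 1416544_at) read 4599 and 4997 in wild type and 650 and 743 in Ezh2-/- cells, and Eed (1448653_at) read 10875 and 9665 in wild type and 3583 and 3638 in Eed-/- cells. None of the 3 Jarid2 probe sets was lower on the arrays labelled Jarid2-/- than in wild type. Their means there were 8238, 9465 and 4951, beside 7025, 7954 and 4344 in wild type. Probe set 1422697_s_at was called higher (log2 difference 0.23, adjusted p = 0.038). The position of the deletion relative to the probe sets is unknown here. The Jarid2 arrays are therefore called by their label, and every direction drawn from them rests on that label. Ezh2 itself was lower there (2926 and 3121, log2 difference -0.66, adjusted p = 0.0015). All 8 listed markers of embryonic stem cells, Pou5f1, Nanog and Sox2 among them, were above the negative controls in every group, but their levels were not all alike. Zfp42 averaged 18380 in wild type and 17960 in Eed-/- cells, and it fell to 3851 in Ezh2-/- cells (log2 -2.25, adjusted p = 2.4e-07) and 3504 on the Jarid2-/- arrays (-2.39, adjusted p = 4.8e-07).

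Many of the homeobox probe sets did not rise above the negative controls. The 3 negative control probe sets, for bacterial genes that mouse RNA does not contain, read between 23.76 and 147.91. A group mean above 147.91 in at least 1 group was found for 62 of the 102 probe sets and 49 of the 73 genes, and the other 40 probe sets (24 genes) were within the control range everywhere. Where the dimmer group lay within the control range, the fold is given as a lower bound, the brighter group over 147.91. Where both groups lay within it, a call is given without a fold. Other folds are ratios of geometric means, and log2 differences are on the log2(intensity + 16) scale, which understates the change of dim genes.

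The first question was whether the homeobox genes changed when a PRC2 subunit was lost. In Ezh2-/- cells 9 probe sets rose and 15 fell, or 23.5% of 102, beside 26.6% of all probe sets tested (9.41% higher and 17.2% lower). In Eed-/- cells 18 rose and 6 fell, again 23.5%, beside 18.6% of all (7.7% higher and 10.9% lower). On the arrays labelled Jarid2-/- 5 rose and 15 fell, or 19.6%, beside 19.8% of all (6.08% higher and 13.7% lower). The shares of homeobox probe sets called in Ezh2-/- cells and on the Jarid2-/- arrays were thus near the background. In Eed-/- cells 18 of 102 rose beside 7.7% of all probe sets and 6 of 102 fell beside 10.9%, given as a description with no test.

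A call here is an adjusted p under 0.05 after Benjamini-Hochberg adjustment over all probe sets of limma's moderated test. Among the calls both groups lay within the negative controls for 1 of the higher and 6 of the lower ones in Ezh2-/- cells, for 2 and 2 in Eed-/- cells and for 1 and 6 on the Jarid2-/- arrays. The split by direction moved with the scaling of the arrays. After quantile normalization it was 11 higher and 8 lower in Ezh2-/- cells, 19 and 6 in Eed-/- cells and 8 and 8 on the Jarid2-/- arrays. With equal array medians it was 10 and 10, 18 and 5, and 7 and 11. Without Ezh2-/- replicate 1 or 2, or wild-type replicate 2, the Ezh2-/- count was 11, 11 and 14. Without Eed-/- replicate 2 the Eed-/- count was 13, and without Jarid2-/- replicate 2 or wild-type replicate 1 the Jarid2-/- count was 10 and 12.

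Read by the brightest probe set of each gene, 6 genes rose and 9 fell in Ezh2-/- cells (9.67% and 17.9% of all genes), 13 rose and 3 fell in Eed-/- cells (7.88% and 11.1%), and 5 rose and 8 fell on the Jarid2-/- arrays (5.99% and 14.2%). Irx2 rose in all 3 comparisons and Dlx4 fell in all 3. Meis1, Meis2 and Isl1 rose in both Ezh2-/- and Eed-/- cells, and Lhx2, Pbx2 and Rhox6 in both Eed-/- cells and on the Jarid2-/- arrays. Brightness was the mean over all 8 arrays, mutants included, so a rise can itself make a probe set the brightest. For Isl1 the other probe set was brighter in wild type and was not called. The 3 comparisons share the same 2 wild-type arrays, so such an overlap is not independent evidence. Over the homeobox probe sets the median log2 difference was -0.05, -0.03 and -0.1 in Ezh2-/-, Eed-/- and Jarid2-/-, and over all probe sets it was -0.07, -0.06 and -0.07.

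**Figure D2:**
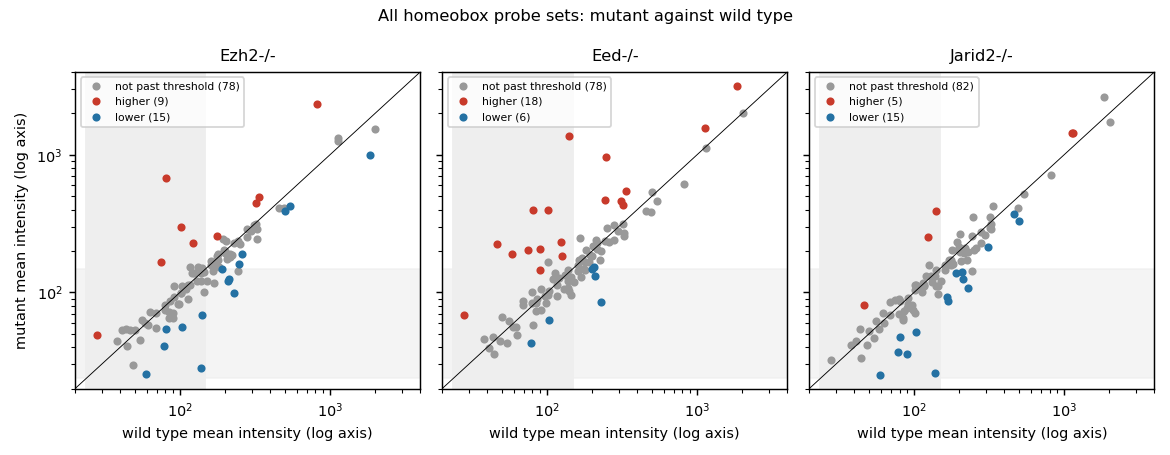
Mean intensity of each of the 102 homeobox probe sets in wild type (horizontal log axis) against each mutant (vertical log axis), 2 arrays per group. Red points passed the threshold as higher and blue points as lower, grey points did not pass it, grey bands span the negative controls (23.76 to 147.91) and the line marks equal intensity. In Eed-/- cells 18 points are red and 6 blue, while in Ezh2-/- cells 9 are red and 15 blue.

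The TALE class, homeodomain proteins that pair with Hox proteins and with each other, had 12 genes and 15 probe sets. Among the genes 3 rose and 2 fell in Ezh2-/- cells, 5 rose in Eed-/- cells, and 2 rose and 1 fell on the Jarid2-/- arrays. The shares of all genes called higher and lower were 9.67% and 17.9% in Ezh2-/-, 7.88% and 11.1% in Eed-/-, and 5.99% and 14.2% in Jarid2-/-, and the counts of this and the following classes are to be read beside them. Meis1 (1450992_a_at), a Hox cofactor of blood and limb progenitors, read 86.9 and 74.8 in wild type, 682 and 682 in Ezh2-/- cells, 397 and 398 in Eed-/- cells, and 101 and 71.2 on the Jarid2-/- arrays. Wild type and Jarid2-/- overlapped within the negative controls, and every Ezh2-/- and Eed-/- array stood far above both. The rise was at least 4.61-fold in Ezh2-/- cells (log2 difference 2.85 ± 0.14 SE, adjusted p = 2.7e-06) and at least 2.69-fold in Eed-/- cells (2.10 ± 0.14, adjusted p = 4.9e-05). On the Jarid2-/- arrays the difference from wild type was 0.06 ± 0.14 (adjusted p = 0.79).

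Meis1 also differed between the Ezh2 and Eed mutants and was 1.71-fold lower in Eed-/- cells (log2 -0.75 ± 0.14, adjusted p = 0.0062, and 0.055 without Ezh2-/- replicate 2). Meis2 (1417129_a_at), a close relative active in brain, limb and heart, read 123 and 81.4 in wild type, 302 and 299 in Ezh2-/- cells, 387 and 406 in Eed-/- cells, and 77.5 and 63.2 on the Jarid2-/- arrays. It was at least 2.03-fold higher in Ezh2-/- cells (1.45 ± 0.16, adjusted p = 0.00035) and at least 2.68-fold higher in Eed-/- cells (1.83 ± 0.16, adjusted p = 0.00022). Both Jarid2-/- arrays lay below both wild-type arrays, with a difference of -0.43 ± 0.16 that missed the threshold (adjusted p = 0.088) and passed it without wild-type replicate 2 (0.01). Directly compared, the Jarid2-/- arrays were lower than Ezh2-/- and Eed-/- cells for Meis1 (log2 -2.79 and -2.04, adjusted p = 1.2e-05 and 4.6e-05) and for Meis2 (-1.88 and -2.26, adjusted p = 0.00016 and 5.2e-05). Meis3 (1423984_a_at), another relative, read 539 and 545 in wild type, 439 and 416 in Ezh2-/- cells, 443 and 476 in Eed-/- cells, and 484 and 552 on the Jarid2-/- arrays. Its fall in Ezh2-/- cells (-0.33 ± 0.10, adjusted p = 0.042) was lost with either other scaling (0.08 and 0.1) and without any 1 array of wild type, Ezh2-/- or Eed-/- (0.057 to 0.22).

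Pbx proteins are the partners that Meis proteins bind. Pbx2 had 3 probe sets, and all 3 rose in Eed-/- cells. The one with the largest differences, 1418894_s_at, read 334 and 335 in wild type, 479 and 512 in Ezh2-/- cells, 530 and 567 in Eed-/- cells, and 392 and 456 on the Jarid2-/- arrays, so that no mutant array reached down to wild type. The folds over wild type were 1.48 in Ezh2-/- (0.54 ± 0.11, adjusted p = 0.0059, and 0.063 without Ezh2-/- replicate 2), 1.64 in Eed-/- (0.68 ± 0.11, adjusted p = 0.0036) and 1.26 on the Jarid2-/- arrays (0.32 ± 0.11, adjusted p = 0.062). The probe set used for the gene, 1418893_at, read 1132 and 1114 in wild type, 1210 and 1326 in Ezh2-/-, 1508 and 1636 in Eed-/- and 1426 and 1455 on the Jarid2-/- arrays. It rose in Eed-/- cells (0.48 ± 0.09, adjusted p = 0.0095, and 0.069 without Eed-/- replicate 2) and on the Jarid2-/- arrays (0.36 ± 0.09, adjusted p = 0.028), the latter ending without any 1 array of wild type, Ezh2-/- or Jarid2-/- (0.057 to 0.1).

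The last Pbx2 probe set, 1449261_at, read 333 and 306 in wild type, 474 and 424 in Ezh2-/- cells, 403 and 458 in Eed-/- cells, and 351 and 361 on the Jarid2-/- arrays. Its rises in Ezh2-/- (0.47 ± 0.11, adjusted p = 0.012) and Eed-/- (0.41 ± 0.11, adjusted p = 0.03) were lost without wild-type replicate 2 (0.06 and 0.12), the former also without Ezh2-/- replicate 1 (0.11) and the latter without either array of Ezh2-/- or Eed-/- (0.051 to 0.17). Pbx3 (1421193_a_at), a relative used in brain and limb, went the other way. It read 471 and 534 in wild type, 402 and 383 in Ezh2-/- cells, 552 and 518 in Eed-/- cells, and 310 and 348 on the Jarid2-/- arrays. The Jarid2-/- arrays were 1.52-fold below wild type (-0.58 ± 0.11, adjusted p = 0.0061) and 1.63-fold below Eed-/- cells (-0.67 ± 0.11, adjusted p = 0.0035). A smaller fall in Ezh2-/- cells (-0.34 ± 0.11, adjusted p = 0.045) ended with either other scaling (0.092 and 0.11), without wild-type replicate 2 (0.21) and without either array of Ezh2-/- or Eed-/- (0.062 to 0.22). Pbx4 was not called against wild type by either of its probe sets.

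The Iroquois genes, which pattern the neural tube, heart and limb, lie in clusters on chromosomes 13 (Irx1, Irx2 and Irx4) and 8 (Irx3, Irx5 and Irx6). Irx2 (1426298_at) rose in every mutant, with 128 and 119 in wild type, 222 and 232 in Ezh2-/- cells, 208 and 257 in Eed-/- cells, and 232 and 271 on the Jarid2-/- arrays. All 6 mutant arrays stood above both wild-type arrays and above the negative controls. The increase was at least 1.54-fold, 1.56-fold and 1.7-fold (log2 0.80, 0.83 and 0.94, each ± 0.12, adjusted p = 0.0019, 0.0031 and 0.0012). Its neighbours Irx1 and Irx4 were not called against wild type, with group means of 79.2 to 101 and 90.7 to 111, all within the negative controls. In the other cluster Irx3 passed the threshold in Eed-/- cells, where both arrays (128 and 163) were above wild type (82.7 and 95.6), although the means of both groups lay within the negative controls (0.61 ± 0.15, adjusted p = 0.022). Irx5 and Irx6 were not called against wild type.

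**Figure D3:**
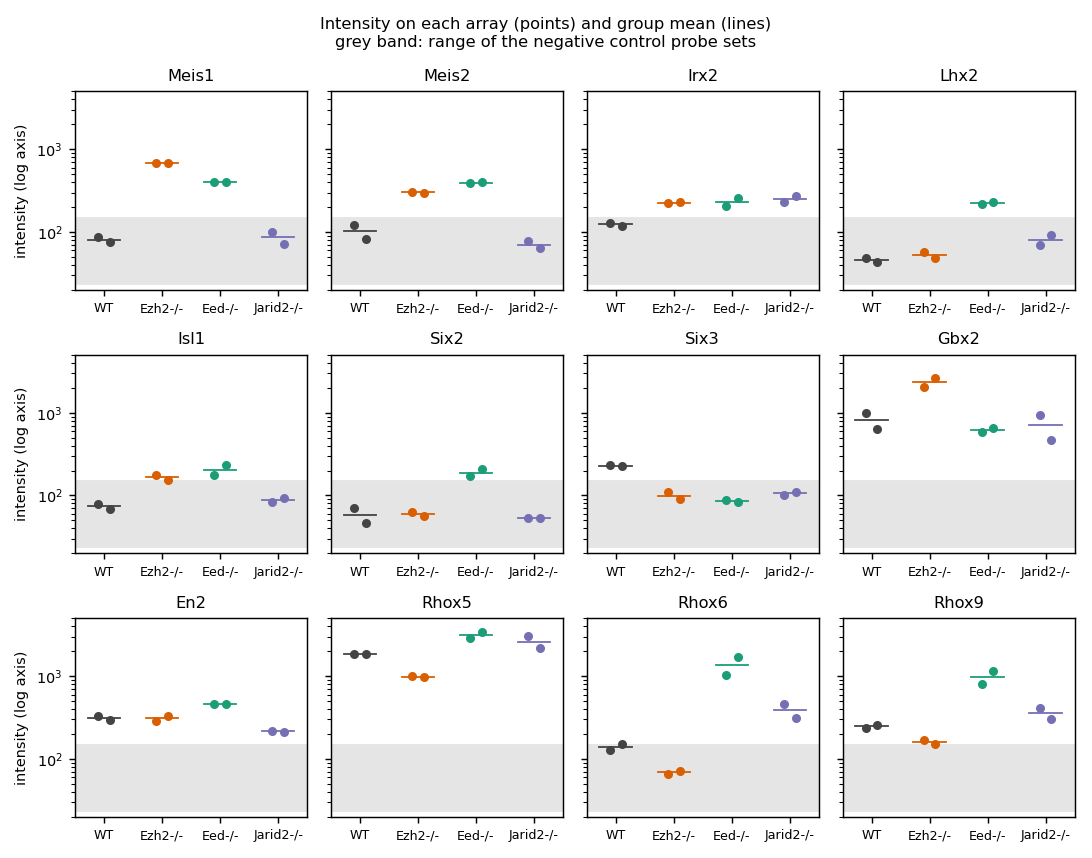
Intensity on each of the 2 arrays per group (points, log axis) and the group mean (line) for 12 homeobox genes, with the grey band marking the negative controls (23.76 to 147.91). Meis1 and Meis2 stand clear of the band in Ezh2-/- and Eed-/- arrays, Irx2 in all 3 mutants, Lhx2 and Six2 in Eed-/- arrays, and the means of the Rhox genes are lowest in Ezh2-/- and highest in Eed-/- arrays.

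The LIM class, whose members carry LIM domains that bind the adaptor Ldb1, had 10 genes and 15 probe sets. Among the genes 2 rose and 1 fell in Ezh2-/- cells, 2 rose in Eed-/- cells, and 1 rose and 1 fell on the Jarid2-/- arrays. Lhx2 (1418317_at), needed for forebrain, eye and limb, read 48.7 and 43.6 in wild type, 57.6 and 48.4 in Ezh2-/- cells, 220 and 228 in Eed-/- cells, and 70.2 and 91.2 on the Jarid2-/- arrays. Both Eed-/- arrays were above the negative controls and the other 6 within them. The rise in Eed-/- cells was at least 1.51-fold (1.95 ± 0.13, adjusted p = 6.3e-05). The Eed-/- arrays also exceeded those of Ezh2-/- (1.80 ± 0.13, adjusted p = 5.4e-05) and of Jarid2-/-, which were lower by a log2 difference of -1.32 ± 0.13 (adjusted p = 0.00033). The Jarid2-/- arrays passed the threshold against wild type within the control range (0.63 ± 0.13, adjusted p = 0.012), and no longer did so without wild-type replicate 2 (0.05) or Jarid2-/- replicate 2 (0.072).

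Isl1, a marker of motor neurons and of cardiac progenitors, rose in the Ezh2 and Eed mutants by 1 of its 2 probe sets. Probe set 1450723_at read 79.9 and 69.5 in wild type, 178 and 154 in Ezh2-/- cells, 175 and 233 in Eed-/- cells, and 83.6 and 92.5 on the Jarid2-/- arrays. The Ezh2-/- and Eed-/- arrays lay above the control range and the others within it, a rise of at least 1.12-fold (1.00 ± 0.14, adjusted p = 0.0013) and 1.37-fold (1.27 ± 0.14, adjusted p = 0.00082). The Jarid2-/- arrays were below both of them (-0.80 ± 0.14, adjusted p = 0.0062 against Ezh2-/-, and 0.067 without Ezh2-/- replicate 1 and -1.07 ± 0.14, adjusted p = 0.0015 against Eed-/-). The other Isl1 probe set, 1422720_at, was not called, with means of 113 to 127, and was the brighter of the 2 in wild type. Lhx5 (1420348_at), a forebrain gene, was higher in Ezh2-/- cells, with 279 and 235 against 186 and 168 in wild type, while Eed-/- read 147 and 150 and Jarid2-/- 172 and 141. That rise was 1.45-fold (0.50 ± 0.12, adjusted p = 0.018), and it was lost without wild-type replicate 2 (0.09) or Ezh2-/- replicate 1 (0.14).

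Lhx1, needed for head formation, and Lhx9, a gene of the gonad and brain, moved at levels the negative controls also reach. For Lhx1, probe set 1421951_at read 79 and 77 in wild type and 33.4 to 51 on the 6 mutant arrays, and fell in all 3 comparisons (adjusted p = 0.0095, 0.018 and 0.007 in Ezh2-/-, Eed-/- and Jarid2-/-). The brighter Lhx1 probe set, used for the gene, fell in Ezh2-/- (log2 -0.45) and Jarid2-/- (-0.6) and was not called in Eed-/- (-0.37). For Lhx9, 1419324_at read 28.1 and 28 in wild type, 54.2 and 43.9 in Ezh2-/- cells and 62.9 and 73.2 in Eed-/- cells, with log2 differences of 0.56 and 0.93 (adjusted p = 0.019 and 0.0035). No fold can be given for either, and the other Lhx9 probe set was not called. The remaining LIM genes Isl2, Lhx3, Lhx4, Lhx6 and Lhx8 were not called against wild type.

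The sine oculis homologues, Six2 to Six6, comprised 5 genes and 8 probe sets. Their proteins work with Eya cofactors in kidney, muscle, eye and forebrain. Six2 (1427436_at), which maintains the progenitors of the kidney, read 70.5 and 46.5 in wild type, 63.2 and 55.9 in Ezh2-/- cells, 170 and 208 in Eed-/- cells, and 53.7 and 53.9 on the Jarid2-/- arrays. Only the Eed-/- arrays were above the negative controls, a rise of at least 1.27-fold (1.47 ± 0.16, adjusted p = 0.00077). The difference between Eed-/- and Ezh2-/- cells was 1.44 ± 0.16 (adjusted p = 0.00055), and that between the Jarid2-/- and Eed-/- arrays was -1.55 ± 0.16 (adjusted p = 0.00042).

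Six3, a gene of the forebrain and eye, fell. Probe set 1426637_a_at read 232 and 226 in wild type, 109 and 90.4 in Ezh2-/- cells, 87.5 and 82.3 in Eed-/- cells, and 102 and 111 on the Jarid2-/- arrays. All 6 mutant arrays were within the negative controls and wild type above them, a fall of at least 1.55-fold in each (-1.09, -1.28 and -1.0, each ± 0.11, adjusted p = 0.00023, 0.00022 and 0.00057). The other probe sets showed less. For 1426638_at the values were 197 and 213 in wild type, 160 and 187 in Ezh2-/-, 167 and 138 in Eed-/- and 169 and 168 on the Jarid2-/- arrays. Its fall in Eed-/- cells (-0.40 ± 0.12, adjusted p = 0.046) ended under 4 other settings, quantile normalization (0.1), equal medians (0.051), the filter on dim probe sets (0.05) and no intensity trend (0.05). It also ended without any 1 array other than Eed-/- replicate 1 (0.057 to 0.24). The brightest array values of the last, 1427523_at, were in Eed-/- cells (222 and 187), and it was not called in any comparison.

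Six4 (1425767_a_at) read 1120 and 1161 in wild type, 1330 and 1308 in Ezh2-/- cells, 1158 and 1069 in Eed-/- cells, and 1441 and 1438 on the Jarid2-/- arrays. It was 1.26-fold higher on the Jarid2-/- arrays (0.33 ± 0.09, adjusted p = 0.031), a call lost without any 1 array of wild type, Ezh2-/- or Jarid2-/- (0.053 to 0.099). Six5 (1427560_at) read 235 and 286 in wild type, 194 and 187 in Ezh2-/- cells, 215 and 249 in Eed-/- cells, and 205 and 216 on the Jarid2-/- arrays. Its fall in Ezh2-/- cells (-0.42 ± 0.12, adjusted p = 0.031) ended with either other scaling (0.068 and 0.056) and without wild-type replicate 2 or either Ezh2-/- array (0.11 to 0.18). Six6 was within the negative controls in every group.

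The Nkx, Dlx, Msx, Tlx, En and Gbx families were counted together and formed the largest group, with 26 genes and 33 probe sets. Among the genes 1 rose and 2 fell in Ezh2-/- cells, 2 rose and 2 fell in Eed-/- cells, and 4 fell on the Jarid2-/- arrays. Gbx2 (1420337_at) helps set the boundary of midbrain and hindbrain and in stem cells acts downstream of leukemia inhibitory factor. It read 988 and 644 in wild type, 2063 and 2594 in Ezh2-/- cells, 582 and 647 in Eed-/- cells, and 949 and 474 on the Jarid2-/- arrays. Both Ezh2-/- arrays were above every other array, and the other 3 groups overlapped. The rise over wild type was 2.9-fold (1.52 ± 0.30, adjusted p = 0.006, and 0.057 without Ezh2-/- replicate 2). Eed-/- cells were 3.77-fold below Ezh2-/- cells (-1.89 ± 0.30, adjusted p = 0.0029) and the Jarid2-/- arrays 3.45-fold below them (-1.76 ± 0.30, adjusted p = 0.0047, and 0.056 without Ezh2-/- replicate 2).

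En2 (1418868_at), a gene of the cerebellum and midbrain, moved in opposite directions in the Eed and Jarid2 mutants. It read 326 and 299 in wild type, 290 and 329 in Ezh2-/- cells, 460 and 457 in Eed-/- cells, and 216 and 214 on the Jarid2-/- arrays. Wild type and Ezh2-/- overlapped, while Eed-/- lay above and Jarid2-/- below all their arrays. The difference from wild type was 1.47-fold up in Eed-/- cells (0.53 ± 0.10, adjusted p = 0.0081) and 1.45-fold down on the Jarid2-/- arrays (-0.51 ± 0.10, adjusted p = 0.0083), and the Jarid2-/- arrays were 2.13-fold below Eed-/- cells (-1.04 ± 0.10, adjusted p = 0.00025). En1 fell in Ezh2-/- cells and on the Jarid2-/- arrays within the negative controls (adjusted p = 0.026 and 0.029).

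Msx2 (1449559_at), a gene of skull, tooth and limb, read 255 and 236 in wild type, 146 and 142 in Ezh2-/- cells, 315 and 622 in Eed-/- cells, and 148 and 135 on the Jarid2-/- arrays. The Eed-/- arrays were both above wild type but far apart. The rise in Eed-/- cells (0.82 ± 0.24, adjusted p = 0.046) was lost in 10 of 16 alternatives, with an adjusted p of 0.13 and a log2 difference of 0.34 without Eed-/- replicate 2, and with 0.053 to 0.14 in the filter on dim probe sets, the fits without trend or with a robust prior, and without any other array except Eed-/- replicate 1. The lower values in Ezh2-/- (-0.70 ± 0.24) and Jarid2-/- (-0.73 ± 0.24) missed the threshold (adjusted p = 0.061 and 0.064), and they passed it without either Eed-/- array (0.0023 to 0.0028). Between the mutants Eed-/- exceeded Ezh2-/- by at least 2.99-fold (1.52 ± 0.24, adjusted p = 0.0031), and the Jarid2-/- arrays were below Eed-/- by the same bound (-1.55 ± 0.24, adjusted p = 0.0033).

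Dlx4 (1420595_at), of the Distal-less family that shapes branchial arches and forebrain, was lower in all 3 mutants. It read 234 and 185 in wild type, 110 and 133 in Ezh2-/- cells, 121 and 140 in Eed-/- cells, and 134 and 147 on the Jarid2-/- arrays, and no mutant array reached the wild-type range. Each mutant mean lay within the negative controls, so the fall was at least 1.41-fold (-0.71, -0.62 and -0.52, each ± 0.14, adjusted p = 0.0062, 0.018 and 0.03). In Ezh2-/- the call ended without Ezh2-/- replicate 1 (0.06), and in Eed-/- without wild-type replicate 1 (0.075) or Eed-/- replicate 1 (0.1). On the Jarid2-/- arrays it ended with either other scaling (0.083 and 0.052) and without wild-type replicate 1 or either Jarid2-/- array (0.07 to 0.15). Its chromosomal neighbour Dlx3 and the pairs Dlx1 with Dlx2 and Dlx5 with Dlx6 were not called against wild type.

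Among the Nkx genes, which pattern the ventral neural tube, heart and gut, calls were small. Nkx2-3 (1425827_at) read 196 and 187 in wild type, 148 and 148 in Ezh2-/- cells, 156 and 174 in Eed-/- cells, and 145 and 132 on the Jarid2-/- arrays. It fell in Ezh2-/- (-0.34 ± 0.10, adjusted p = 0.036) and Jarid2-/- (-0.43 ± 0.10, adjusted p = 0.019), the former lost with either other scaling (0.14 and 0.1) and without any 1 array of its groups (0.085 to 0.15), the latter after quantile normalization (0.067) and without wild-type replicate 1 (0.078) or Jarid2-/- replicate 2 (0.099). Its other 2 probe sets were not called. Nkx2-9 (1422284_at) read 467 and 454 in wild type, 421 and 398 in Ezh2-/- cells, 397 and 386 in Eed-/- cells, and 374 and 368 on the Jarid2-/- arrays. Its fall on the Jarid2-/- arrays (-0.30 ± 0.09, adjusted p = 0.047) ended in 11 of 16 alternatives, with either other scaling (0.11 and 0.12), the robust prior (0.05) and any array left out (0.068 to 0.15).

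Nkx2-4 gave opposite calls from its 2 probe sets in Eed-/- cells. Probe set 1432862_at read 199 and 202 in wild type, 196 and 189 in Ezh2-/-, 144 and 152 in Eed-/- and 190 and 206 on the Jarid2-/- arrays, a fall in Eed-/- of -0.40 ± 0.09 (adjusted p = 0.019). Probe set 1432863_a_at read 117 and 132 in wild type, 147 and 131 in Ezh2-/-, 183 and 187 in Eed-/- and 140 and 178 on the Jarid2-/- arrays, a rise in Eed-/- of 0.51 ± 0.13 (adjusted p = 0.024). The direction of Nkx2-4 is therefore unsettled. The first call ended without any 1 array of wild type or Eed-/- (0.051 to 0.092) and the other without wild-type replicate 1 or either Eed-/- array (0.086 to 0.11). Nkx2-6 (1452018_at) read 466 and 520 in wild type, 389 and 431 in Ezh2-/-, 367 and 402 in Eed-/- and 390 and 434 on the Jarid2-/- arrays and was not called, although every mutant array was below both wild-type arrays (adjusted p = 0.12, 0.059 and 0.14). Nkx1-2 fell in Ezh2-/- and Jarid2-/- by 1 of its 3 probe sets, 1422050_at (adjusted p = 0.015 and 0.016). The group means lay within the negative controls, but the wild-type arrays read 206 and 69.7, the first of them above the controls. Nkx2-1, Nkx2-2, Nkx2-5, Nkx3-2, Nkx6-1, Nkx6-2, Msx1, Msx3 and the Tlx genes were not called against wild type.

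The paired-type genes fell into the PAX class (8 genes, 14 probe sets) and a class with Otx, Pitx, Prrx, Alx and Rhox (9 genes, 13 probe sets). Pax1 and Pax9 have a paired domain without a homeodomain and were kept because the rule was by name. The calls in the PAX class against wild type came from 1 probe set, of Pax6 (1419271_at), the regulator of eye development. It read 222 and 205 in wild type, 117 and 133 in Ezh2-/- cells, 303 and 180 in Eed-/- cells, and 125 and 128 on the Jarid2-/- arrays. The Eed-/- arrays straddled wild type, and the Ezh2-/- and Jarid2-/- arrays lay within the negative controls. The fall was at least 1.44-fold in both (-0.71 ± 0.19, adjusted p = 0.026, and -0.69 ± 0.19, adjusted p = 0.036). It was lost without any 1 array of the groups compared (0.061 to 0.14 in Ezh2-/- and 0.068 to 0.12 in Jarid2-/-), and in Jarid2-/- also with either other scaling, without the intensity trend and without either Ezh2-/- array (0.055 to 0.068). The other 4 Pax6 probe sets were not called.

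Otx2 (1425926_a_at), a regulator of forebrain and of the exit from the naive stem cell state, was well above the negative controls in every group. It read 1986 and 2036 in wild type, 1545 and 1536 in Ezh2-/- cells, 2380 and 1671 in Eed-/- cells, and 1663 and 1771 on the Jarid2-/- arrays. The Eed-/- arrays overlapped wild type and the others lay below it. No difference from wild type passed the threshold (-0.38 ± 0.14 in Ezh2-/-, adjusted p = 0.083, -0.01 in Eed-/- and -0.23 in Jarid2-/-), and that in Ezh2-/- passed it without either Eed-/- array (0.017 and 0.016). Prrx2 (1432331_a_at), a gene of limb and facial mesenchyme, read 156 and 180 in wild type, 112 and 122 in Ezh2-/- cells, 109 and 149 in Eed-/- cells, and 74.6 and 99.9 on the Jarid2-/- arrays. It fell on the Jarid2-/- arrays by at least 1.13-fold (-0.84 ± 0.16, adjusted p = 0.0078). Its relative Prrx1 fell in all 3 mutants by 1 of 4 probe sets, 1425528_at, with 103 and 102 in wild type and 47.5 to 66.8 on the mutant arrays, all within the negative controls (adjusted p = 0.0026, 0.01 and 0.0019). Pitx1, Pitx3 and Alx4 were not called.

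Prrx1 and Prrx2 are also genes of mesenchyme, and markers of fibroblasts and feeder cells were counted beside them. Of 10 markers measured, 6, 3 and 5 fell in Ezh2-/-, Eed-/- and Jarid2-/- and 4, 7 and 5 were not called. Their summed intensity, in which bright probe sets weigh most, was 20186 to 21245 in wild type and 6244 to 6378 in Ezh2-/- cells. It was 11919 to 16505 in Eed-/- cells and 10540 to 13193 on the Jarid2-/- arrays. The list medians of the log2 difference were -1.04, -0.31 and -0.68 in Ezh2-/-, Eed-/- and Jarid2-/-. Col1a1 fell from 490 in wild type to 24.5, 66.4 and 23.6 in Ezh2-/-, Eed-/- and Jarid2-/-, whereas Thy1 (log2 0.16, 0.14 and -0.22), Lum (0.16, 0.17 and 0.23) and Dcn (-0.17, -0.04 and 0.03) were not called in any. None of the markers was at 0, and 4 to 6 of 10 lay within the negative controls in each group. Their part in the result was not tested.

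The Rhox genes are reproductive homeobox genes in a cluster on the X chromosome, used in germ cells, Sertoli cells and placenta. All 3 measured were called lower in Ezh2-/- cells and higher in Eed-/- cells. Over all genes 17.9% were lower in Ezh2-/- and 7.88% higher in Eed-/-, and genes with both calls were not counted. In Ezh2-/- cells only the Rhox5 call held in every alternative. That of Rhox9 was lost with either other scaling. That of Rhox6 had both group means within the negative controls and was lost in 4 alternatives. Rhox5 (1423429_at) read 1857 and 1844 in wild type, 1005 and 977 in Ezh2-/- cells, 2902 and 3418 in Eed-/- cells, and 3081 and 2163 on the Jarid2-/- arrays. The Ezh2-/- arrays were 1.87-fold below wild type (-0.89 ± 0.15, adjusted p = 0.0032) and the Eed-/- arrays 1.7-fold above (0.76 ± 0.15, adjusted p = 0.011, and 0.078 without Eed-/- replicate 2). Both Jarid2-/- arrays lay above wild type, by 0.48 ± 0.15 (adjusted p = 0.057), and this passed the threshold with equal medians (0.035) and without Jarid2-/- replicate 2 (0.73, adjusted p = 0.0083).

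Rhox6 (1419018_at) read 129 and 151 in wild type, 65.6 and 71.8 in Ezh2-/- cells, 1020 and 1718 in Eed-/- cells, and 464 and 315 on the Jarid2-/- arrays. The order Eed-/-, Jarid2-/-, wild type and Ezh2-/- held without overlap. The increase was at least 8.95-fold in Eed-/- cells (3.11 ± 0.24, adjusted p = 0.00012) and at least 2.59-fold on the Jarid2-/- arrays (1.36 ± 0.24, adjusted p = 0.0049). In Ezh2-/- cells it was lower (-0.88 ± 0.24, adjusted p = 0.026), with both group means within the negative controls and 1 wild-type array above them. That call ended with a pseudocount of 64 (0.07), without wild-type replicate 2 or without either Ezh2-/- array. Rhox9 (1449540_at) read 237 and 258 in wild type, 168 and 152 in Ezh2-/- cells, 795 and 1148 in Eed-/- cells, and 409 and 303 on the Jarid2-/- arrays, again in that order without overlap. It rose 3.86-fold in Eed-/- cells (1.88 ± 0.18, adjusted p = 0.00039), while on the Jarid2-/- arrays the difference was 0.48 ± 0.18 (adjusted p = 0.097). Its 1.55-fold fall in Ezh2-/- cells (-0.58 ± 0.18, adjusted p = 0.044) was lost in 8 alternatives, with other scaling, a pseudocount of 64 or no trend (0.064 to 0.075) and without any 1 array of its groups (0.07 to 0.21).

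The difference between Eed-/- and Ezh2-/- cells was tested directly for the 3 Rhox genes and was 3.18-fold for Rhox5, 5.98-fold for Rhox9 and at least 8.95-fold for Rhox6 (log2 1.65, 2.47 and 3.98, adjusted p = 0.00017, 5.4e-05 and 1.5e-05). Levels on the Jarid2-/- arrays exceeded Ezh2-/- cells by 2.61-fold, 2.2-fold and at least 2.59-fold for Rhox5, Rhox9 and Rhox6 (1.37, 1.07 and 2.24, adjusted p = 0.00055, 0.0052 and 0.00044), the Rhox9 call ending without Ezh2-/- replicate 2 (0.058). Between Eed-/- and Ezh2-/- cells the median log2 difference was 0.15 over the 276 X-linked genes above the negative controls and 0.01 over all 9343. Of the 276, 76 were higher and 9 lower in Eed-/-, beside 1356 and 670 of the 9343. For Jarid2-/- against Ezh2-/- the medians were 0.04 and -0.01. There 45 of the 276 were higher and 23 lower, beside 992 and 879 of the 9343. The part of the chromosome in the Rhox differences was not tested. Over the 276 X-linked genes above the negative controls the median log2 difference from wild type was -0.16 in Ezh2-/-, -0.03 in Eed-/- and -0.11 in Jarid2-/-, beside -0.06, -0.03 and -0.06 over all 9343 such genes. Of the 276, 14 were higher and 88 lower in Ezh2-/-, 31 and 28 in Eed-/-, and 15 and 61 in Jarid2-/-. Of the 9343, 1140 were higher and 1785 lower in Ezh2-/-, 892 and 963 in Eed-/-, and 716 and 1331 in Jarid2-/-.

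The CDX class, caudal-type genes of the posterior axis and, for Cdx2, of the trophectoderm, had 3 genes and 4 probe sets. Cdx1 (1449582_at) read 169 and 164 in wild type, 141 and 146 in Ezh2-/- cells, 173 and 328 in Eed-/- cells, and 93.5 and 92 on the Jarid2-/- arrays. It fell on the Jarid2-/- arrays (-0.75 ± 0.22, adjusted p = 0.044, at least 1.13-fold), a call that ended in 11 of 16 alternatives, among them both other scalings, a pseudocount of 64, the filter and no trend (0.051 to 0.073) and leaving out any 1 array of wild type, Ezh2-/- or Jarid2-/- (0.074 to 0.14). In Eed-/- cells the difference of 0.48 ± 0.22 was not called (adjusted p = 0.16) and passed without Eed-/- replicate 1 (0.0043). It was at least 1.61-fold lower on the Jarid2-/- arrays than in Eed-/- cells (-1.23 ± 0.22, adjusted p = 0.0065).

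The 2 probe sets of Cdx2 differed. The brighter, 1422074_at, was not called, with means of 190 to 216. The other, 1422075_at, read 120 and 60.4 in wild type, 70.8 and 59.7 in Ezh2-/- cells, 159 and 253 in Eed-/- cells, and 35.5 and 35.8 on the Jarid2-/- arrays. It rose in Eed-/- cells by at least 1.35-fold (1.09 ± 0.27, adjusted p = 0.023), which ended without wild-type replicate 2 (0.095) or Eed-/- replicate 2 (0.15). It was lower on the Jarid2-/- arrays within the negative controls (-0.98 ± 0.27, adjusted p = 0.032), which ended in 8 alternatives (quantile normalization, a pseudocount of 64 or no trend, 0.052 to 0.063, and without wild-type replicate 1 or either array of Ezh2-/- or Jarid2-/-, 0.054 to 0.15). Jarid2-/- against Eed-/- arrays gave -2.07 ± 0.27 (adjusted p = 0.0012). Of the trophectoderm markers 7 of 8 were measured. Krt8, Krt18 and Tfap2c fell in Ezh2-/- cells, Krt8 and Krt18 on the Jarid2-/- arrays, and Eomes rose in Eed-/- cells. The summed intensity of the markers, in which bright probe sets weigh most, was 17953 to 24207 in wild type and 3551 to 4456 in Ezh2-/-. It was 11160 to 21658 in Eed-/- and 5849 to 7382 in Jarid2-/-. The list medians of the log2 difference were -0.23, -0.24 and -0.18 in Ezh2-/-, Eed-/- and Jarid2-/-. None of the markers was at 0, and 2 of 7 lay within the negative controls in each group. Their part in the Cdx values was not tested.

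**Figure D4:**
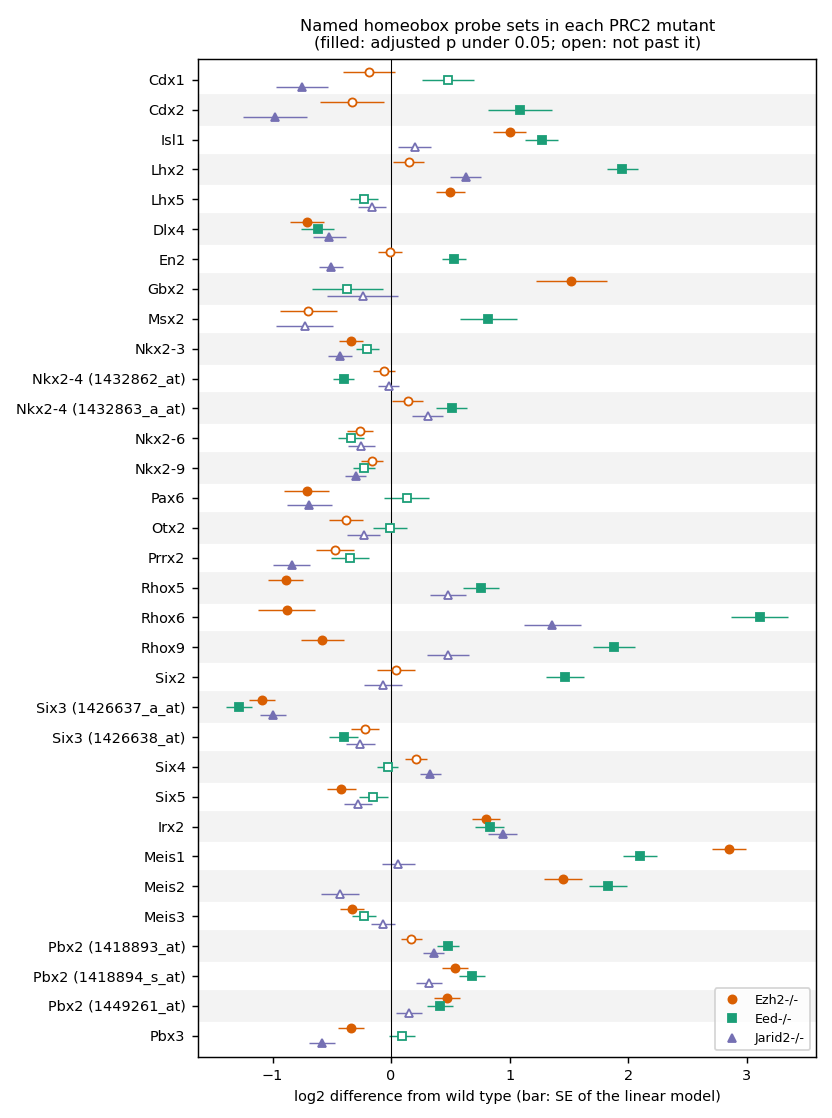
Log2 difference from wild type (horizontal axis) with the standard error of the linear model (bars) for the 33 named homeobox probe sets in Ezh2-/- (circles), Eed-/- (squares) and Jarid2-/- (triangles), 2 arrays per group. Filled symbols passed an adjusted p of 0.05. Meis1 and Meis2 are high in Ezh2-/- and Eed-/-, Rhox5, Rhox6 and Rhox9 are below 0 in Ezh2-/- and above it in Eed-/-, and Six3 (1426637_a_at) is low in all 3.

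The 33 named probe sets were chosen largely for their calls in these data, so their number of calls followed from the choice. Over all 102 homeobox probe sets 23.5%, 23.5% and 19.6% were called in Ezh2-/-, Eed-/- and Jarid2-/-. Over all probe sets tested the shares were 26.6%, 18.6% and 19.8%. Of the 99 differences of the 33 from wild type, 53 passed the threshold, and 23 of these did so under all 16 alternatives. Those 23 were Irx2 and Six3 (1426637_a_at) in all 3 mutants, and Meis1, Meis2 and Isl1 in Ezh2-/- and Eed-/-. They further included En2 in Eed-/- and Jarid2-/-, Rhox6 in Eed-/- and Jarid2-/-, Lhx2, Six2, Rhox9 and Pbx2 (1418894_s_at) in Eed-/-, Pbx3 and Prrx2 in Jarid2-/-, and Rhox5 in Ezh2-/-. None of the 53 changed sign, but the naming rule favoured mutant arrays outside the wild-type range. A difference of that kind keeps its sign when an array is left out. The rule also favoured probe sets that pass the filter on dim probe sets. Neither result is therefore a separate check.

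The mutants were then compared with each other, which asks whether loss of different subunits left the same homeobox levels. Between Eed-/- and Ezh2-/- cells 21 of 102 probe sets differed, 15 higher and 6 lower in Eed-/- (16.8% of all probe sets, 11.1% higher and 5.68% lower), a split of 14 and 9 with equal array medians. Meis1, Gbx2 and Lhx5 were lower in Eed-/-, and Lhx2, Six2, Msx2, En2, Cdx2 (1422075_at) and the 3 Rhox genes were higher. The calls of Meis1, Lhx5, En2 and Cdx2 did not hold with every array left out. Without Ezh2-/- replicate 1 the log2 difference was -0.61 for Lhx5 and 0.46 for En2. For Cdx2 it was 1.32 without Ezh2-/- replicate 2 and 1.11 without Eed-/- replicate 2. The count was 10 without Ezh2-/- replicate 2. Between the Jarid2-/- arrays and Ezh2-/- cells 10 differed, 4 higher and 6 lower in Jarid2-/- (15% of all, 7.77% higher and 7.28% lower), or 6 without Ezh2-/- replicate 2. Lhx2 and the Rhox genes were higher, and Meis1, Meis2, Gbx2, Isl1, En2 and Lhx5 lower. For Lhx2 both groups lay within the negative controls, and the call (0.48, adjusted p = 0.042) ended without either array of Ezh2-/- or Eed-/- or Jarid2-/- replicate 2 (0.066 to 0.26). The En2 call ended without Ezh2-/- replicate 2 (0.12) or Jarid2-/- replicate 2 (0.063), and the Lhx5 call without Ezh2-/- replicate 1 (0.086) or Jarid2-/- replicate 2 (0.063).

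Between the Jarid2-/- arrays and Eed-/- cells 21 differed, 2 higher and 19 lower in Jarid2-/- (14.9% of all, 4.99% higher and 9.9% lower). The 2 higher were Six4 (0.37, adjusted p = 0.025) and Nkx2-4 (1432862_at, 0.39, adjusted p = 0.024). Both calls ended when either Ezh2-/- array, either Eed-/- array or Jarid2-/- replicate 2 was left out (adjusted p of 0.05 to 0.17 for Six4 and 0.052 to 0.12 for Nkx2-4), and that of Six4 also without Jarid2-/- replicate 1 (0.085). Of the 19, 12 were lower by more than 1 on the log2 scale, Meis1, Meis2, Lhx2, Isl1, Six2, En2, Msx2, Rhox6 and Rhox9 among them. Of 39 called differences between mutants among the named probe sets, 23 held in every alternative and none changed sign. These probe sets were named largely for their calls against wild type, so the 39 give no share for homeobox probe sets.

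**Figure D5:**
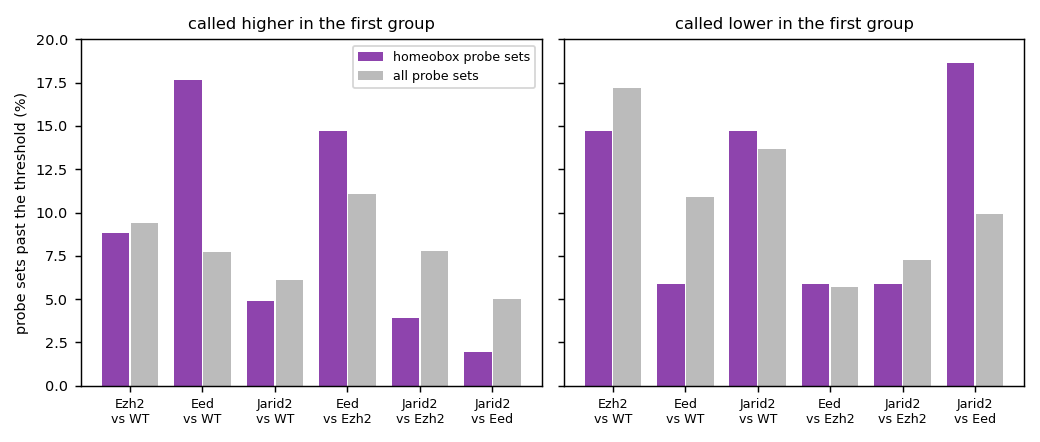
Share of probe sets past the threshold (%, vertical axis, from 0) in each of the 6 comparisons, as higher (left) or lower (right) in the group named first, for the 102 homeobox probe sets (purple) and all 22626 probe sets (grey). WT is wild type. The purple bar exceeds the grey one among the higher calls for Eed-/- against wild type (18 of 102 beside 7.7%) and against Ezh2-/- (15 beside 11.1%). Among the lower calls it does so for Jarid2-/- against Eed-/- (19 beside 9.9%), and by less for Jarid2-/- against wild type (15 beside 13.7%) and Eed-/- against Ezh2-/- (6 beside 5.68%).

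Homeobox genes whose names the rule does not match were counted in the same way. Of 56 measured of 82 listed, 4 rose and 6 fell in Ezh2-/- cells, 6 rose and 4 fell in Eed-/- cells, and 2 rose and 6 fell on the Jarid2-/- arrays. Over all genes the shares higher and lower were 9.67% and 17.9% in Ezh2-/-, 7.88% and 11.1% in Eed-/-, and 5.99% and 14.2% in Jarid2-/-. Hopx, an atypical homeodomain protein of the heart that does not bind DNA, rose in Ezh2-/- (mean 3409 against 698 in wild type, log2 2.28, adjusted p = 3.5e-05) and Eed-/- (1242, 0.83, adjusted p = 0.01), as Meis1, Meis2 and Isl1 did. Mixl1, a gene of the primitive streak, fell in all 3 mutants (162 in wild type and 59.6, 85.2 and 81.8, adjusted p = 0.005, 0.045 and 0.033). Its wild-type arrays read 212 and 112. The lower of these and all the mutant means lay within the negative controls. The median log2 differences of the list were -0.05, -0.01 and -0.05, and those over all genes -0.08, -0.06 and -0.08.

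Partners and cofactors of homeodomain proteins were also listed. Of 20 measured of 22, 2 rose and 2 fell in Ezh2-/- cells, 3 rose and 2 fell in Eed-/- cells, and 4 rose and 2 fell on the Jarid2-/- arrays, beside the same shares over all genes (9.67% and 17.9% in Ezh2-/-, 7.88% and 11.1% in Eed-/-, and 5.99% and 14.2% in Jarid2-/-). Ldb1, the adaptor that LIM homeodomain proteins need, fell in Ezh2-/- (1288 against 1955 in wild type, -0.59, adjusted p = 0.0096) and Eed-/- (1089, -0.83, adjusted p = 0.0035). Lmo1, which competes for that adaptor, rose in Eed-/- cells (400 against 165, 1.19, adjusted p = 0.00045).

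Some markers of other lineages were also called, and their part was not tested. Of 7 neural progenitor markers measured, 3 rose and 1 fell in Ezh2-/-, 3 rose in Eed-/-, and 2 rose and 1 fell in Jarid2-/-, with summed intensities of 1699 to 1984 in wild type, 3815 to 3857, 6984 to 7287 and 7054 to 8099. Most of the increase in these sums was in Olig1 (means 79, 1684, 3903 and 4565 in wild type, Ezh2-/-, Eed-/- and Jarid2-/-) and Olig2 (30, 971, 1361 and 1832), while the list medians of the log2 difference were 0.22, 0.04 and -0.06. Of 10 endoderm markers, 2 rose and 2 fell, 5 rose, and 2 rose and 2 fell, with sums of 1986 to 2039, 4855 to 5105, 3210 to 3400 and 2671 to 2711. Lama1 (600, 3105, 1178 and 1313) and Sox7 (46.7, 655, 319 and 115) carried the sum in Ezh2-/-, and the list medians were -0.06, 0.34 and -0.04. Of 5 mesoderm markers measured of 6, 1 fell in Ezh2-/- and 2 rose in Eed-/-, with sums of 1107 to 1131, 1039 to 1066, 1306 to 1533 and 970 to 1033 and list medians of 0.06, 0.03 and 0.07. No marker in these lists was at 0. In wild type 4 of 7, 4 of 10 and 2 of 5 of them lay within the negative controls.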

How the data were processed

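Expression was measured on Affymetrix Mouse430A_2 arrays with biotin-labelled cRNA, 1 array per sample. The deposited values are linear intensity per probe set as the authors processed them. The software and background correction behind them are not given in the sources used here. Genes were named through the platform annotation, where 20380 tested probe sets had 1 symbol, 691 several and 1555 none. The 64 control probe sets were left out. Intensities were floored at 1, 16 was added and log2 taken, and limma 3.58.1 in R 4.3.3 (lmFit, eBayes with an intensity trend) was fitted to all 8 arrays with 1 mean per genotype, giving 4 residual and 5.02 prior degrees of freedom. P-values are two-sided and adjusted over 22626 probe sets in each of 6 comparisons. The script was checked on simulated data. A table with 12 columns matched to no sample label was not used.

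The genes and lists were chosen with earlier results of these data known. Named are up to 10 of the largest called changes per direction and mutant with arrays outside the wild-type range and the brighter mean above the negative controls, the 8 brightest genes in wild type, genes called in opposite directions, and genes whose probe sets disagree. Irx3, Lhx1, Lhx9, En1, Nkx1-2, Prrx1 and the list genes named fall outside this rule and were added after their values were seen. Alternatives were quantile normalization, equal array medians, pseudocounts of 1 and 64, a filter on dim probe sets (17013 kept), no trend, a robust prior, a replicate block, the mean over a gene's probe sets, and each array left out. For named probe sets between mutants these were added after seeing the data. The number of arrays limits the precision.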

Additional observations from a re-analysis of the deposited data

How the results depend on the processing

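With each array left out in turn, the number of homeobox probe sets called was 11 to 25 for Ezh2-/- against wild type, 13 to 22 for Eed-/-, 10 to 20 for Jarid2-/-, 10 to 25 for Eed-/- against Ezh2-/-, 6 to 11 for Jarid2-/- against Ezh2-/- and 14 to 23 for Jarid2-/- against Eed-/-. Genes called against wild type numbered 7 to 16, 10 to 15 and 7 to 13. A group left with 1 array is assumed to vary like the others. All other alternatives kept these counts within 1.5 times. By gene, the split in Ezh2-/- went from 6 higher and 9 lower to 8 and 3 after quantile normalization and 7 and 5 with equal medians, and in Jarid2-/- from 5 and 8 to 5 and 4 and to 6 and 5. With the probe sets of each gene averaged, 19, 19 and 15 genes were called. The replicate numbers were not taken to pair the arrays: the correlation of same-numbered deviations was 0.411 for wild type with Jarid2-/-, 0.244 for Eed-/- with Jarid2-/- and 0.008 to 0.05 for the other group pairs. With the replicate block the 6 comparisons gave 26, 26, 23, 24, 11 and 23 probe sets, and 17, 18 and 15 genes against wild type. Of the 53 named differences called against wild type 30 were lost in at least 1 alternative, and of 46 not called 11 passed in at least 1; between mutants 16 of 39 were lost and 13 of 60 passed. None of the named differences that were called reversed, which for those against wild type follows largely from how they were named. The cause of these shifts was not tested. Signal over background limits the 24 genes that stayed within the negative controls.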
